A study of Homo sapiens with 8 samples.

Results

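Fatty acid synthesis and desaturation in Ewing sarcoma cells was examined through 10 genes, ACLY, ACSS2, ACACA, FASN, ELOVL6, ELOVL5, SCD, FADS1, FADS2 and ACSL3, of 60332 genes in the expression table. The 10 genes were chosen by name, selected on earlier results of these same libraries in which the fall of SCD in SK-N-MC was already known, so the values below describe them and are no independent support. Where a symbol had several rows, the row of highest mean value would have been taken, but each of the 10 symbols had 1 row. The RNA-seq libraries come from RD-ES and SK-N-MC, established cell lines of Ewing sarcoma, a bone and soft tissue tumor driven by a fusion of EWSR1 with an ETS gene. In each line, 2 control libraries were compared with 2 libraries of eKD2 cells (8 libraries in all). The eKD2 cells were polyclonal pools that expressed dCas9-KRAB, a nuclease-dead Cas9 that brings the KRAB repressor domain to DNA, and 1 guide RNA next to the GGAA repeat at the enhancer of LOXHD1. According to the labels the controls carried the same dCas9-KRAB lentivirus without a guide, whereas the paper calls them parental cells. All cells were grown with fetal bovine serum. Cells that received virus, by the labels the controls too, were given it at a multiplicity of 10. They were kept in puromycin (1 µg/ml) for 3 days and harvested no later than passage 5 after it.

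Fatty acids are built in the cytosol from acetyl-CoA, which ACACA carboxylates to malonyl-CoA and FASN joins into palmitate. Elongases then lengthen the chain, desaturases place double bonds in it, and acyl-CoA synthetases activate free fatty acids for use in lipids. SREBP transcription factors are known to drive many of these genes together with those of cholesterol synthesis, and NF-Y and Sp1 are known to act beside SREBP at such promoters.

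Promoter sequences are shown for SCD, ACLY and ACSL3, whose values were lower in SK-N-MC eKD2 libraries, and for ELOVL5, whose values were close in all groups, since all of them hold the NF-Y box. Each is the 250 bases upstream of the annotated start, from RefSeq on GRCh38.p14, with the box CCAAT in capitals, which reads ATTGG where it lies on the other strand. The SCD stretch is chr10:100346983-100347232 on the plus strand, and that of ACSL3 is chr2:222860786-222861035 on the plus strand. The ACLY stretch is chr17:41919023-41919272 and that of ELOVL5 is chr6:53348951-53349200, both on the minus strand.
SCD: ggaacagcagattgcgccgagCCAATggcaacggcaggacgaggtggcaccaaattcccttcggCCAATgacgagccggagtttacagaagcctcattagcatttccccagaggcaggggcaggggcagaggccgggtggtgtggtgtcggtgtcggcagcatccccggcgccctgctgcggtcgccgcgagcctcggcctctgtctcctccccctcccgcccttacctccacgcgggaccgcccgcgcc
ACLY: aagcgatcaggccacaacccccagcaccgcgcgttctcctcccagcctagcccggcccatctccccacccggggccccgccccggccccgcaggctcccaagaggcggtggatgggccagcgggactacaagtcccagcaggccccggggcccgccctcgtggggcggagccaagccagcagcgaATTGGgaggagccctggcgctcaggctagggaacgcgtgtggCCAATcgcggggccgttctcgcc
ACSL3: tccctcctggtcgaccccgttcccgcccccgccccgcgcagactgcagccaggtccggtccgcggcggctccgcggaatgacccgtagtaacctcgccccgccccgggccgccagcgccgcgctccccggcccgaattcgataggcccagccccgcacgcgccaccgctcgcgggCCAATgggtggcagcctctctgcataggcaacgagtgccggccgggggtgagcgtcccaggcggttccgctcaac
ELOVL5: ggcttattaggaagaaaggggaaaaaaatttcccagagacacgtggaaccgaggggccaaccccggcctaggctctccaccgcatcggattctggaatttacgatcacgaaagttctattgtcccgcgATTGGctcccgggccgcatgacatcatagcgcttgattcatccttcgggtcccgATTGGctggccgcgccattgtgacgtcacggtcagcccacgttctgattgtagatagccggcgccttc

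RefSeq windows of 300 bases (250 before to 50 after the start) were found for 9 of the 10 genes, 14 windows in all, some of them overlapping. FASN had no window, so the motif counts do not cover it. The letters CCAAT, searched on both strands, occurred in 9 of the 14 windows, against 34.6% of all 35116 windows in the table. The 2 ACLY windows overlap and hold the same 2 boxes. By gene, 7 of the 9 had CCAAT in a window, a count to which the share of windows does not apply, since some genes have several windows. In SCD the 2 boxes begin 229 and 186 bases upstream of the start, in ACLY 65 and 23, in ELOVL5 122 and 68, and in ACSL3 the 1 box begins 75 bases upstream. The FADS1 and ELOVL6 windows held no CCAAT. The Sp1 box GGGCGG was in 11 of the 14 windows against 45.0% of all, the E-box CACGTG in 1 of 14 against 7.26%, and the sterol regulatory element TCACNCCAC (N, any base) in 0 of 14 against 1.13%. With so low a share in all windows, 0 exact matches to 1 consensus does not show that these promoters lack a sterol regulatory element. Matches of each motif were counted separately, whether or not they overlap another. They are descriptions of letters in a window, found in SCD, which passed the test between groups in SK-N-MC, and in genes that did not pass it.

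The deposited values were FPKM, read numbers normalized to transcript length and library size. The depth is not given with them. From the steps in low values the libraries reached between 0.249 (RD-ES eKD2 replicate 1) and 1.0 of the depth of the deepest (SK-N-MC control replicate 1), an estimate that rests on 12.0% to 17.9% of the low genes compared and includes any scaling by the authors. LOXHD1, the targeted gene, was at 21.4 and 21.2 FPKM in RD-ES control and 1.04 and 1.02 in RD-ES eKD2, and at 159 and 169 FPKM in SK-N-MC control and 11.0 and 12.0 in SK-N-MC eKD2. All 10 Ewing sarcoma markers examined (CD99, NKX2-2 and others) were at or above 1 FPKM in every library. Of the adipocyte markers FABP4, LEP and CIDEC were at 0 in every library and the highest of the others was PLIN1 at 1.16 FPKM, and of the hepatocyte markers FGA was at 0 and the highest was ALB at 2.91 FPKM. Fibroblast markers summed to between 19.4 and 27.3 FPKM in RD-ES libraries and 309 to 336 in SK-N-MC libraries, led by DCN, and PTPRC, a marker of blood cells, reached 22.6 FPKM in SK-N-MC. Their part in the differences between the lines was not tested. In such bulk libraries a smaller share of cells with a transcript and less of it per cell cannot be told apart.

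The 10 genes spanned a wide range of levels. In RD-ES control libraries FADS2 was highest, at 276 ± 17.1 FPKM (SD, n = 2), followed by FASN (138 ± 12.0), FADS1 (115 ± 6.15), ACLY (108 ± 0.115) and ELOVL5 (80.6 ± 1.42), and none of these neighbors overlapped. SCD (57.3 ± 1.83) and ACSL3 (53.3 ± 9.25) overlapped, and ACACA (33.5 ± 1.20), ACSS2 (11.0 ± 3.79) and ELOVL6 (5.86 ± 0.523) followed without overlap. FADS2 thus lay at percentile 97.2 and ELOVL6 at percentile 34.4 of the 15175 genes tested, those whose mean reached 1 FPKM. In SK-N-MC control libraries FADS2 (134 ± 7.77), FADS1 (131 ± 13.6) and ACLY (123 ± 9.60) overlapped at the top, ELOVL5 (73.3 ± 1.59) overlapped FASN (68.2 ± 10.9), and ACSL3 (56.3 ± 3.96) overlapped SCD (56.1 ± 0.0895). ACACA (32.1 ± 4.23), ACSS2 (19.2 ± 0.0120) and ELOVL6 (1.82 ± 1.20) were again lowest. In SK-N-MC eKD2 libraries SCD moved from seventh to eighth place, beside ACACA (31.1 ± 1.34 against 31.3 ± 0.398 FPKM), while ELOVL5 stayed above FASN at 71.0 ± 5.31.

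**Figure D1:**
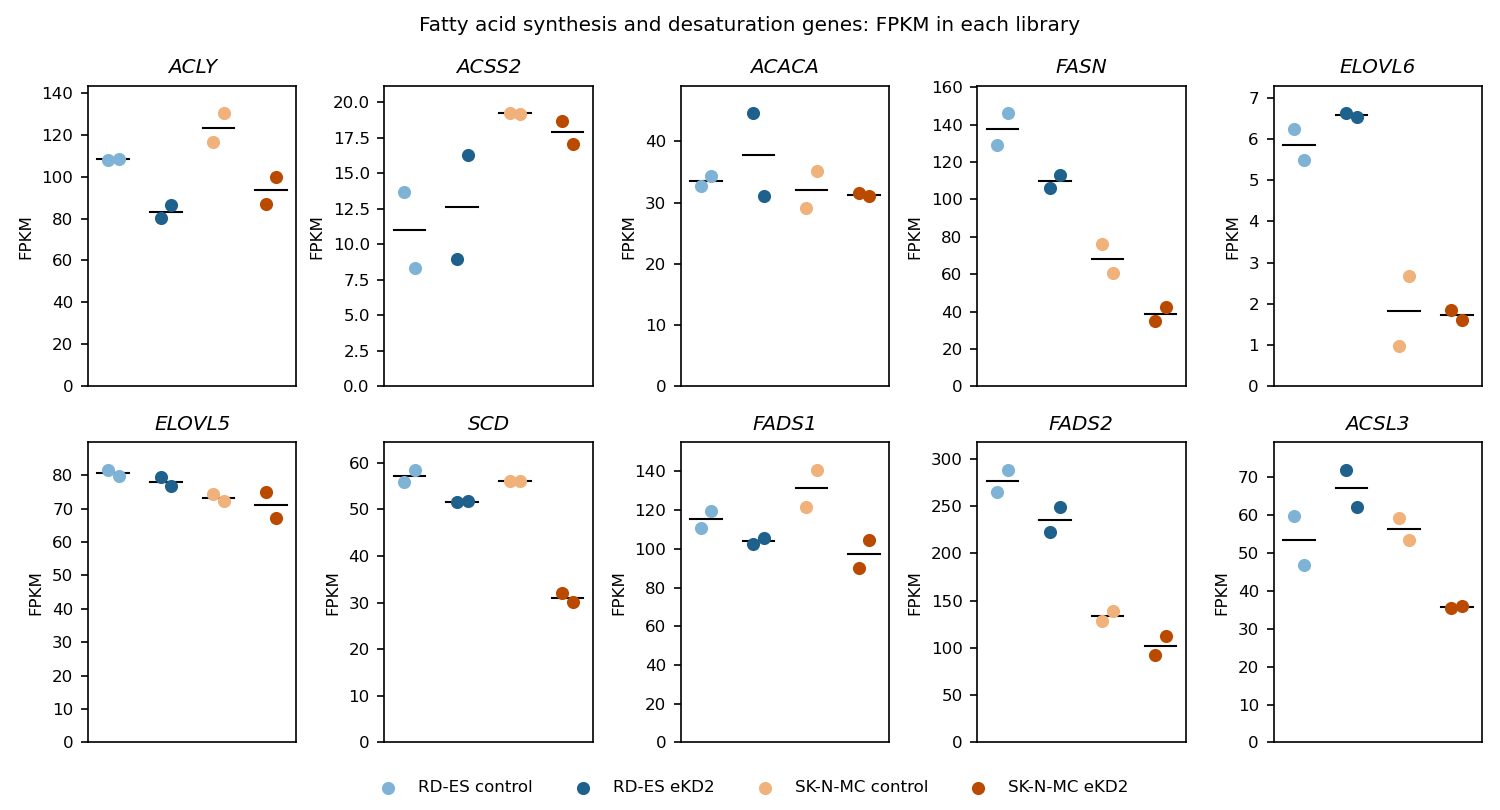
FPKM of each of the 10 genes (y axes, starting at 0) in the 8 libraries, with 1 point per library and a bar at the mean of each group of 2. SCD stands at 56.0 and 56.1 FPKM in SK-N-MC control and at 32.0 and 30.1 in SK-N-MC eKD2, and ACSL3 is higher in RD-ES eKD2 and lower in SK-N-MC eKD2 than in control.

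Differences were tested as log2(FPKM + 1) with limma over the 15175 genes, in 1 fit of the 4 groups, with Benjamini-Hochberg adjustment over all of them and a threshold of 0.05. With 2 libraries a group, the smallest two-sided p of an exact permutation test is 0.333. In RD-ES 0.343% of all genes passed the adjusted threshold in either direction and none of the 10 did, with 1 of them, ACLY, at an unadjusted p under 0.05 (3.79% of all genes were lower at that level). In SK-N-MC 0.323% of all genes passed, 0.171% of all genes as lower, and 1 of the 10, SCD, was among them. At an unadjusted p under 0.05, 6 of the 10 genes were lower in SK-N-MC eKD2 (7.29% of all genes) and none was higher. The median log2 difference of the 10 genes was -0.095 in RD-ES, where that of all genes was 0.031, and -0.39 in SK-N-MC, where that of all genes was -0.0049.

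Groups of 2 libraries did not overlap for 8 of the 10 genes in RD-ES. Of these, 6 were lower in eKD2 (ACLY, FASN, ELOVL5, SCD, FADS1 and FADS2), as were 15.1% of all genes, and 2 were higher (ELOVL6 and ACSL3), as were 24.2% of all genes. In SK-N-MC 7 were lower without overlap (ACLY, ACSS2, FASN, SCD, FADS1, FADS2 and ACSL3), as were 25.1% of all genes. ACLY, FASN, SCD, FADS1 and FADS2, 5 of the 10, were lower without overlap in both lines, as were 4.03% of all genes. ACSL3 was the 1 gene of the 10 that separated in opposite directions, as did 10.2% of all genes. In RD-ES the share of higher genes among all those at an unadjusted p under 0.05 was 69.1% as deposited, 41.2% with median scaling of the libraries and 53.7% with quantile normalization, and the 8 genes kept the sign of their RD-ES log2 difference under both scalings.

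**Figure D2:**
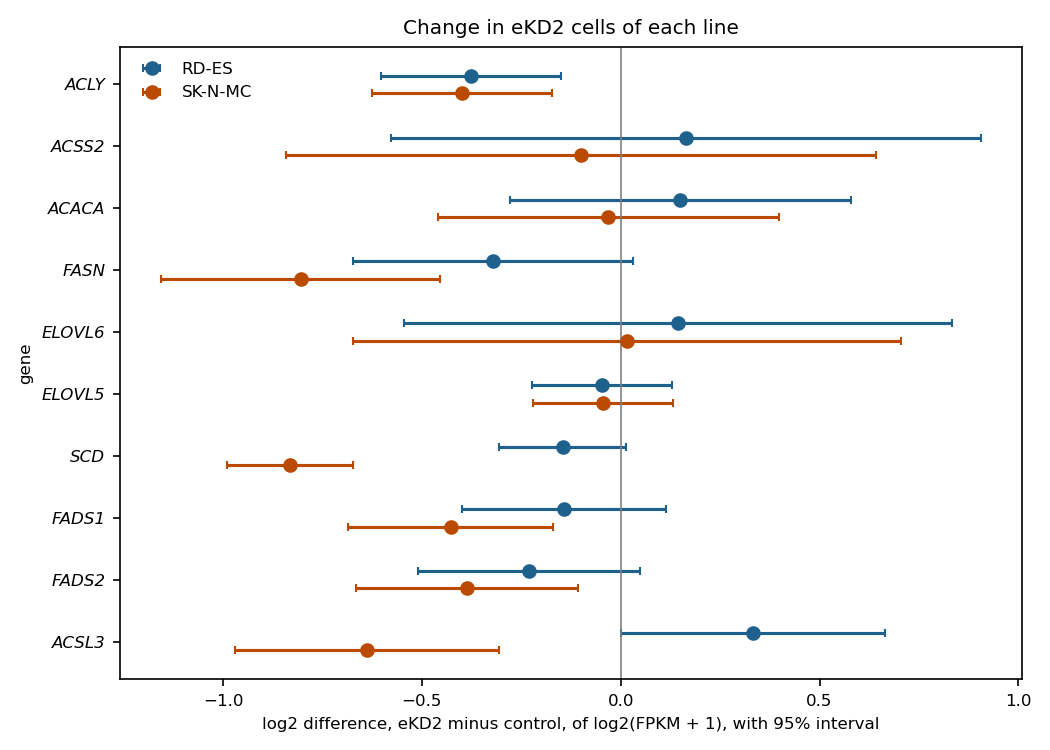
Difference of log2(FPKM + 1) between eKD2 and control (x axis) for the 10 genes (y axis) in RD-ES and SK-N-MC, each point with the 95% interval of the limma fit. The SK-N-MC value of SCD is -0.83 with an interval from -0.99 to -0.67, whereas the RD-ES value is -0.15 with an interval from -0.31 to 0.012.

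Acetyl-CoA for the pathway is supplied by ACLY, which cleaves citrate, and by ACSS2, which activates acetate. ACLY (chr17:40023170-40086795, minus strand, GRCh37) was at 108 and 108 FPKM in RD-ES control and 80.1 and 86.3 in eKD2, and at 117 and 130.2 FPKM in SK-N-MC control and 87.2 and 99.7 in eKD2. Both eKD2 libraries lay below both controls in each line. The log2 difference was -0.38 ± 0.093 (SE) in RD-ES cells and -0.40 ± 0.093 in SK-N-MC cells, neither past the threshold (limma adjusted p = 0.23 and 0.20). ACLY differed between lines in its change by -0.022, with an interval from -0.34 to 0.30. ACSS2 ranged from 8.34 to 16.3 FPKM in RD-ES, where replicates were farther apart than the groups, and from 17.1 to 19.2 in SK-N-MC. Its log2 difference was 0.16 ± 0.30 in RD-ES cells and -0.10 ± 0.30 in SK-N-MC cells (limma adjusted p = 0.87 and 0.95). ACSS2 overlaps GGT7 in the annotation, and the library kit does not mark strand, so reads of the shared stretch cannot be told apart.

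ACACA, the acetyl-CoA carboxylase that makes malonyl-CoA, showed no separation of the groups. Its values were 32.7 and 34.4 FPKM in the RD-ES controls, 44.6 and 31.1 in the RD-ES eKD2 libraries, 29.2 and 35.1 in the SK-N-MC controls and 31.6 and 31.0 in the SK-N-MC eKD2 libraries. FASN, the fatty acid synthase (chr17:80036214-80056170, minus strand, GRCh37), was at 129 and 146 FPKM in RD-ES control and 106 and 113 in RD-ES eKD2. In SK-N-MC, FASN was at 75.9 and 60.5 FPKM in control and 34.8 and 42.2 in eKD2, with no overlap in either line. The FASN log2 difference was -0.32 ± 0.14 (SE) in RD-ES cells and -0.81 ± 0.14 in SK-N-MC cells, the latter 1.77-fold lower by the means, but neither passed the threshold (limma adjusted p = 0.44 and 0.14). FASN had close to the fold of SCD with a wider spread between replicates. The ratio of FASN to ACACA within libraries was 4.10 ± 0.210 in the RD-ES controls and 3.01 ± 0.892 in the RD-ES eKD2 libraries, and 2.16 ± 0.623 and 1.23 ± 0.183 in those of SK-N-MC (SD, n = 2 each).

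Of the elongases, ELOVL6 extends the saturated chains that FASN makes, and ELOVL5 acts on polyunsaturated chains. ELOVL6 was low, at 6.23 and 5.49 FPKM in the RD-ES controls, 6.62 and 6.52 in the RD-ES eKD2 libraries, 0.976 and 2.67 in the SK-N-MC controls and 1.85 and 1.60 in the SK-N-MC eKD2 libraries. The SK-N-MC control replicates enclosed both eKD2 values. ELOVL5 was at 81.7 and 79.6 FPKM in the RD-ES controls, 79.4 and 76.7 in the RD-ES eKD2 libraries, 74.4 and 72.1 in the SK-N-MC controls and 74.8 and 67.3 in the SK-N-MC eKD2 libraries. Its log2 difference was -0.047 (interval -0.22 to 0.13) in RD-ES and -0.046 (interval -0.22 to 0.13) in SK-N-MC, so that a change of the size of SCD in SK-N-MC lies outside the interval.

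SCD (ENSG00000099194.5_2, chr10:102106990-102124583, plus strand, GRCh37), the stearoyl-CoA desaturase that makes oleate and palmitoleate, was at 56.0 and 58.5 FPKM in RD-ES control and 51.5 and 51.7 in RD-ES eKD2. In SK-N-MC, SCD was at 56.0 and 56.1 FPKM in control and at 32.0 and 30.1 in eKD2. All 4 eKD2 values lay below the controls of their line, and the SK-N-MC eKD2 pair lay farthest below. SCD fell by 0.83 ± 0.065 (SE) on the log2 scale in SK-N-MC, 1.80-fold by the means (limma adjusted p = 0.0094, rank 21 of 15175 by p). In RD-ES the log2 difference of SCD was -0.15 ± 0.065 (limma adjusted p = 0.44). The difference of the SCD change between the lines was -0.69 ± 0.092, with an interval from -0.91 to -0.46, and it did not pass the adjusted threshold (limma adjusted p = 0.078). For that difference 0.244% of all genes passed and none of the 10, and 2 of the 10 (SCD and ACSL3) were lower at an unadjusted p under 0.05, as were 9.16% of all genes. The SCD call in SK-N-MC was lost when SK-N-MC was fitted alone (adjusted p = 0.16, against 0.0062 to 0.16 across the alternatives) and when any 1 of the 4 control libraries was left out (adjusted p = 0.060 and 0.059 without RD-ES control replicates 1 and 2, 0.064 and 0.051 without SK-N-MC control replicates 1 and 2).

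FADS1 and FADS2, the desaturases of polyunsaturated fatty acids, lie on opposite strands of chromosome 11 (chr11:61567099-61596790, minus strand, and chr11:61560452-61634826, plus strand, GRCh37). Their annotated spans overlap, and without strand their shared reads cannot be told apart. The FADS2 span also overlaps that of FEN1, so reads of that stretch may be shared as well. FADS1 was at 111 and 119.5 FPKM in the RD-ES controls, 103 and 106 in the RD-ES eKD2 libraries, 122 and 141 in the SK-N-MC controls and 90.1 and 105 in the SK-N-MC eKD2 libraries. FADS2 was at 264 and 288 FPKM in the RD-ES controls, 222 and 249 in the RD-ES eKD2 libraries, 128 and 139 in the SK-N-MC controls and 92.7 and 112 in the SK-N-MC eKD2 libraries. In each line the eKD2 libraries lay below the controls for both genes. The log2 differences were -0.14 ± 0.11 (FADS1) and -0.23 ± 0.11 (FADS2) in RD-ES and -0.43 ± 0.11 and -0.39 ± 0.11 in SK-N-MC, none past the threshold (limma adjusted p = 0.62, 0.48, 0.21 and 0.27). The ratio of FADS2 to FADS1 was 2.40 ± 0.0204 in the RD-ES controls and 2.26 ± 0.138 in the RD-ES eKD2 libraries, against 1.02 ± 0.0463 in the SK-N-MC controls and 1.05 ± 0.0296 in the SK-N-MC eKD2 libraries (SD, n = 2 each). The ratio thus separated the lines without overlap. Control and eKD2 did not overlap in RD-ES (2.38 and 2.41 against 2.16 and 2.36) and overlapped in SK-N-MC.

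**Figure D3:**
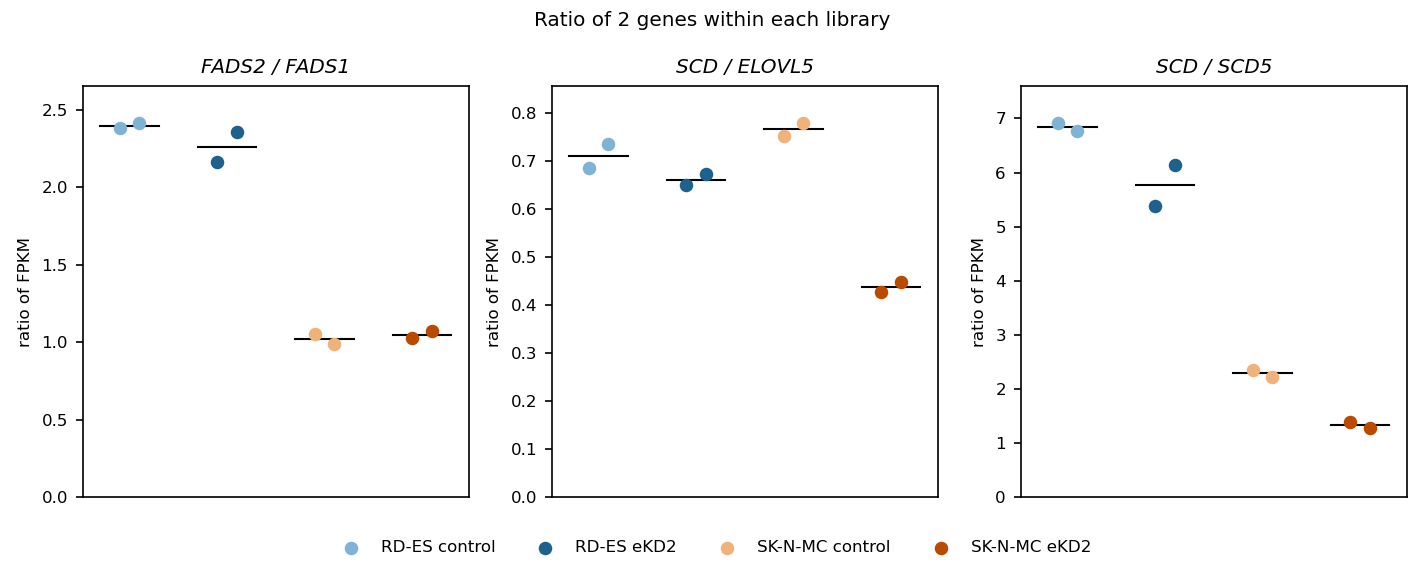
Ratio of FPKM of a pair of genes within each library (y axes, starting at 0), with 1 point per library and a bar at the mean of each group of 2. FADS2 over FADS1 separates the lines (2.40 against 1.02 in control), and SCD over ELOVL5 separates SK-N-MC eKD2 (0.438) from the other groups (0.661 to 0.766).

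Against ELOVL5, SCD had a ratio of 0.710 ± 0.0352 in the RD-ES controls and 0.661 ± 0.0175 in the RD-ES eKD2 libraries, and of 0.766 ± 0.0179 and 0.438 ± 0.0138 in SK-N-MC (SD, n = 2 each). SCD5, the other stearoyl-CoA desaturase, was at 24.5 FPKM in the SK-N-MC controls and 23.3 in the SK-N-MC eKD2 libraries, and RD-ES had 8.37 and 8.99 FPKM. The ratio of SCD to SCD5 was 6.84 ± 0.0954 and 5.76 ± 0.529 in RD-ES control and eKD2, and 2.29 ± 0.0849 and 1.34 ± 0.0735 in SK-N-MC. SCD was therefore the higher of the pair in every library, by the least in SK-N-MC eKD2.

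ACSL3 (chr2:223725660-223809357, plus strand, GRCh37), an acyl-CoA synthetase of the endoplasmic reticulum and lipid droplets, was at 59.9 and 46.8 FPKM in RD-ES control and 72.0 and 62.2 in RD-ES eKD2. In SK-N-MC, ACSL3 was at 59.1 and 53.5 FPKM in control and 35.6 and 35.9 in eKD2. Both RD-ES eKD2 libraries lay above and both SK-N-MC eKD2 libraries below the controls of their line. The log2 difference of ACSL3 was 0.33 ± 0.14 (SE) in RD-ES (limma adjusted p = 0.41), against -0.64 ± 0.14 in SK-N-MC (limma adjusted p = 0.17, 1.57-fold lower by the means). The change differed between the lines by -0.97 ± 0.19, with an interval from -1.44 to -0.50, which did not pass the adjusted threshold (limma adjusted p = 0.17). Its paralog ACSL4 was at 17.4 FPKM in the SK-N-MC controls and 17.9 in the SK-N-MC eKD2 libraries, and ACSL1 at 16.6 and 18.3, while ACSL5 and ACSL6 had means under 0.3 FPKM in every group.

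The summed FPKM of the 10 genes was 863 and 896 in RD-ES control and 774 and 799 in RD-ES eKD2, and 681 and 710 in SK-N-MC control and 499 and 542 in SK-N-MC eKD2. The sum was a mean of 879 ± 23.4 against 787 ± 17.7 FPKM in RD-ES and 695 ± 20.0 against 520 ± 29.9 in SK-N-MC (SD, n = 2 each), and the groups of each line did not overlap. FADS2 made up 31.4% ± 1.11 of the sum in RD-ES control and 19.2% ± 0.565 in SK-N-MC control. SCD made up 8.07% ± 0.219 in the SK-N-MC controls and 5.99% ± 0.602 in the SK-N-MC eKD2 libraries, and 6.51% ± 0.0350 and 6.56% ± 0.131 in RD-ES. A sum over genes is led by its highest members, here FADS2 and FASN in RD-ES and FADS2, FADS1 and ACLY in SK-N-MC.

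**Figure D4:**
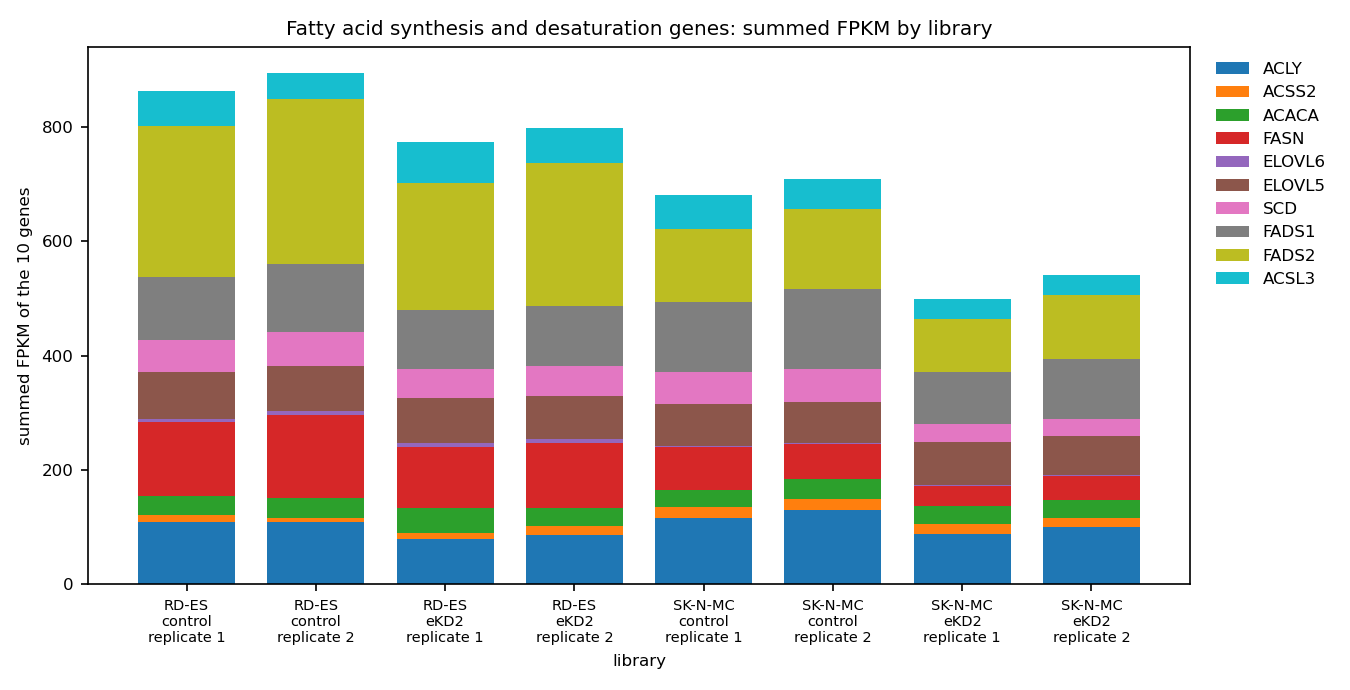
Summed FPKM of the 10 genes (y axis, starting at 0) in each of the 8 libraries (x axis), each color 1 gene. Both eKD2 libraries stand below both controls in each line, with sums of 774 and 799 in RD-ES eKD2 and 499 and 542 in SK-N-MC eKD2.

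Between the control libraries of the lines, 26.4% of all genes were lower and 31.4% higher in SK-N-MC at an adjusted p under 0.05. Of the 10 genes, 3 were lower and none was higher. FADS2 was 2.07-fold lower in SK-N-MC by the means (log2 difference -1.04 ± 0.11, limma adjusted p = 5.7e-04), FASN 2.02-fold lower (-1.01 ± 0.14, adjusted p = 0.0016) and ELOVL6 3.22-fold lower (-1.35 ± 0.28, adjusted p = 0.0076). The ELOVL6 difference rests on SK-N-MC controls that lay far apart, and was -0.90 without SK-N-MC control replicate 1 and -1.79 without replicate 2 (adjusted p from 0.0016 to 0.049 with any 1 library left out). SCD differed by -0.029, with an interval from -0.19 to 0.13. Scaling libraries to the same median moved the median of all genes in this comparison from 0.065 to -0.042, after which ELOVL5 was lower in SK-N-MC (log2 difference -0.28, adjusted p = 0.030) in place of -0.14 ± 0.072 (adjusted p = 0.15), and ACSL3 changed sign from 0.085 to -0.061. ACSS2 was higher in SK-N-MC by 0.79 ± 0.30 (adjusted p = 0.067), and its 2 RD-ES controls lay far apart. Without RD-ES control replicate 1 the ACSS2 difference was 1.11 (adjusted p = 0.048) and without replicate 2 it was 0.46 (adjusted p = 0.31). ACSS2 also passed without short genes (adjusted p = 0.046) and without either RD-ES eKD2 library (0.035 and 0.036), and over all alternatives its adjusted p ran from 0.035 to 0.31.

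Paralogs of the 10 genes were compared by level. ACACB, the mitochondrial acetyl-CoA carboxylase, was at 20.4 FPKM in the RD-ES controls and 29.8 in the SK-N-MC controls, against 33.5 and 32.1 FPKM for ACACA. Of the other elongases ELOVL1 was highest (38.7 FPKM in RD-ES control and 28.6 in SK-N-MC control), followed by ELOVL2 (12.1 and 19.4) and ELOVL4 (5.78 and 12.8), with ELOVL7 at 0.410 and 2.50 and ELOVL3 under 1 FPKM in every library. FADS3 was at 40.6 and 22.7 FPKM. The ACSS2 paralogs ACSS1 and ACSS3 were at 5.46 and 7.59 FPKM in RD-ES control and 0.575 and 0.432 in SK-N-MC control. None of these paralogs that was tested passed the adjusted threshold in either eKD2 comparison.

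Other genes of the pathway were described by lists drawn up for lipid metabolism with earlier results of these data known. Genes were called over all 15175. In RD-ES no gene of any list passed the adjusted threshold. In SK-N-MC the calls lay in 3 lists, all of them as lower, where 0.171% of all genes were called lower. Of the mevalonate pathway, which makes the sterol precursors, 3 of 9 genes fell, namely ACAT2, acetoacetyl-CoA thiolase (log2 difference -1.01, limma adjusted p = 0.0084), HMGCS1, HMG-CoA synthase (-1.40, 0.032) and FDPS, farnesyl diphosphate synthase (-0.70, 0.034). Of the genes from squalene to cholesterol, 4 of 12 fell, among them FDFT1, squalene synthase (-1.12, adjusted p = 0.032), CYP51A1 (-0.93, 0.018) and MSMO1 (-0.86, 0.034), the latter pair being enzymes that remove methyl groups from the sterol. Of the SREBP and LXR regulators, 1 of 11 fell, INSIG1, which holds SREBP in the endoplasmic reticulum (-1.26, adjusted p = 0.040), while SREBF2 had a log2 difference of -0.56 (adjusted p = 0.15).

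Many of these calls depended on the settings, also with all 8 libraries in the fit. INSIG1 did not pass with median scaling (adjusted p = 0.053), quantile normalization (0.052), no filter on low values (0.061), a pseudocount of 0.1 (0.061) or no variance trend (0.053). MSMO1 did not pass with either scaling (0.053 and 0.051) or without the trend (0.058), and without the trend HMGCS1 (0.052), FDFT1 (0.058) and FDPS (0.092) did not pass either. FDFT1, CYP51A1, MSMO1, FDPS and INSIG1 each lost the call whichever 1 library was left out, and ACAT2 and HMGCS1 lost it in some of these fits. The log2 difference of CYP51A1 then ran from -0.96 to -0.90. With SK-N-MC fitted alone none of the 3 lists held a call. By medians, the mevalonate list lay at -0.57 in SK-N-MC and -0.082 in RD-ES, the squalene to cholesterol list at -0.52 and -0.17, and the 10 fatty acid genes at -0.39 and -0.095. All 12 genes of the squalene to cholesterol list, 8 of the 9 of the mevalonate list and 9 of the 10 fatty acid genes had a value below 0 in SK-N-MC, as did 7747 of all 15175 genes. The largest differences in SK-N-MC among the fatty acid genes, -0.83 for SCD and -0.81 for FASN, were smaller than those of HMGCS1, INSIG1 and FDFT1.

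**Figure D5:**
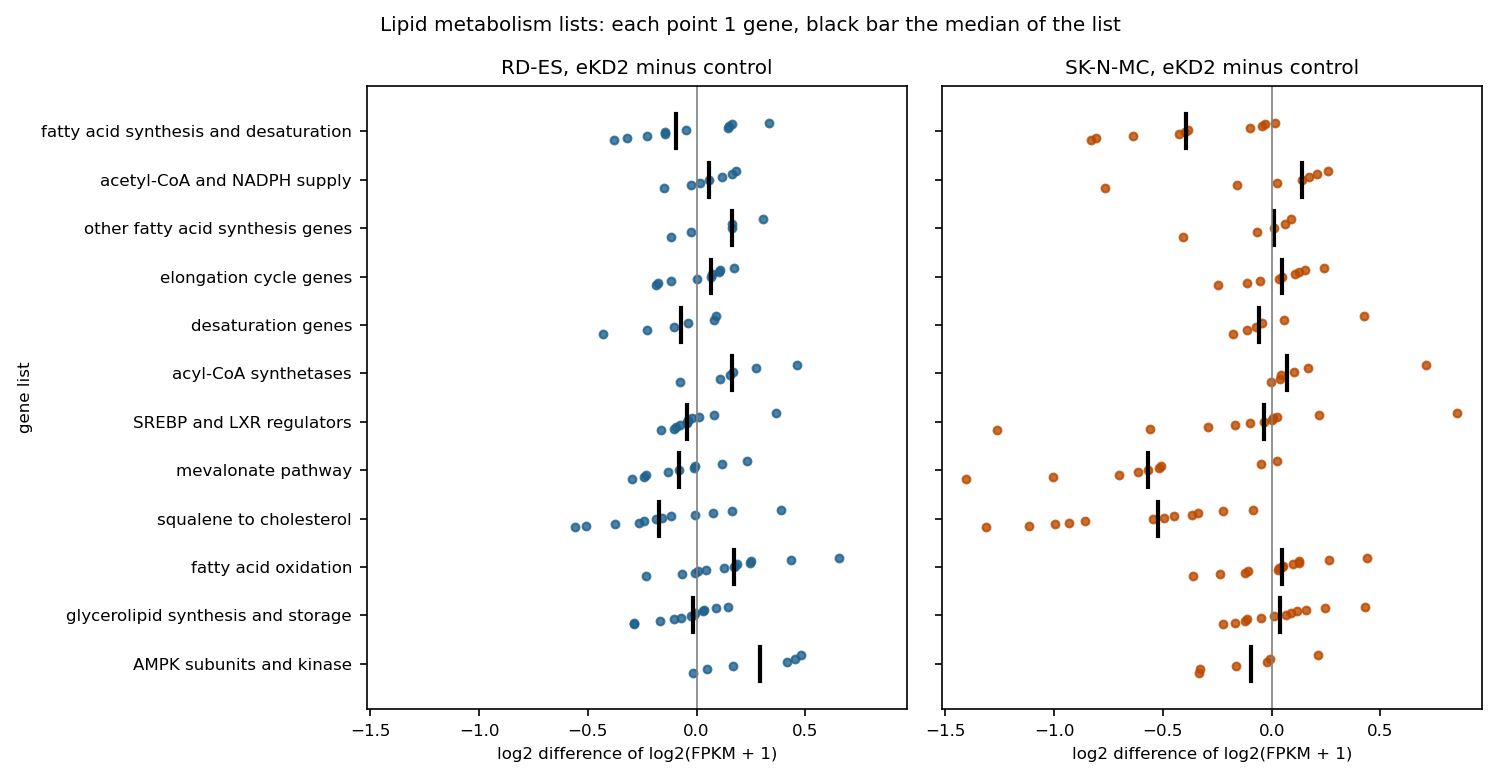
Difference of log2(FPKM + 1) between eKD2 and control (x axes) for the tested genes of each lipid list (rows) in RD-ES and SK-N-MC, with 1 point per gene and a black bar at the median of the list. In SK-N-MC the medians of the fatty acid genes (-0.39), the mevalonate pathway (-0.57) and squalene to cholesterol (-0.52) lie left of 0, and those of the other lists lie between -0.094 and 0.14.

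In the remaining lists no gene passed in either line. Among the genes that supply acetyl-CoA and NADPH, the nearest to it were PGD (-0.15) and ACSS1 (0.16) in RD-ES and ME1 (0.26) and PC (-0.77) in SK-N-MC, with limma adjusted p of 0.43, 0.63, 0.28 and 0.34. Among other fatty acid synthesis genes MCAT, the mitochondrial malonyl transferase, was at -0.41 in SK-N-MC (adjusted p = 0.19) and 0.16 in RD-ES (0.53), and MID1IP1, which activates ACACA, at 0.062 (0.88) and 0.31 (0.36). Of the elongation cycle, HACD3 was at -0.19 in RD-ES (adjusted p = 0.38) and -0.11 in SK-N-MC (0.56), ELOVL1 at -0.18 in RD-ES (0.51) and HACD2 at -0.25 in SK-N-MC (0.34). Of the desaturation genes, DEGS1 was at -0.23 in RD-ES (adjusted p = 0.27), CYB5B at -0.18 in SK-N-MC (0.45), and FADS3 at -0.43 in RD-ES (0.44) against 0.43 in SK-N-MC (0.43).

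Of the acyl-CoA synthetases, ACSS3 was at 0.46 in RD-ES (limma adjusted p = 0.32) against 0.10 in SK-N-MC (0.85), and SLC27A2 at 0.27 (0.73) and 0.71 (0.37). MLXIPL, a glucose-responsive activator of lipogenic genes in the regulator list, was at 0.37 in RD-ES (adjusted p = 0.53) and 0.85 in SK-N-MC (0.20), and SREBF2 at -0.16 in RD-ES (0.56). In RD-ES the nearest to the threshold were MSMO1 (-0.37, adjusted p = 0.22) and EBP (-0.26, 0.26) on the squalene to cholesterol list, where LSS was at -0.56 (0.27), and HMGCS1 (-0.30, 0.47) and MVD (-0.23, 0.54) on the mevalonate list. Fatty acid oxidation, which breaks down what the pathway makes, had ACADS at 0.65 (adjusted p = 0.28) and ACADM at 0.25 (0.39) in RD-ES, and SLC25A20 at -0.36 (0.41) and ECI1 at 0.44 (0.45) in SK-N-MC. Of glycerolipid synthesis and storage, DGAT2 was at 0.15 (0.55) in RD-ES cells and 0.25 (0.33) in SK-N-MC cells, and GPAM at -0.17 (0.58) and -0.22 (0.47). Of the AMPK subunits, which restrain ACACA when energy is low, PRKAB2 was at 0.41 (0.21) and PRKAG2 at 0.45 (0.36) in RD-ES, and PRKAA1 at -0.33 (0.28) and PRKAB1 at -0.33 (0.55) in SK-N-MC.

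Among the 5 genes most like SCD over the 8 libraries, by Pearson correlation of log2(FPKM + 1) centered on the mean of each line among 15174 genes, were POLA2 (r = 0.992), LRRC59 (0.991), PSMD6 (0.990) and RPS27L (0.989). The 8 points fall into 4 groups of 2 libraries. The control and eKD2 pairs of SK-N-MC, on opposite sides of the mean of their line, weigh most, so r describes these libraries. These 4 genes had log2 differences between -0.53 and -0.39 in SK-N-MC, and none of them passed the threshold (limma adjusted p = 0.11 for POLA2, 0.076 for LRRC59, 0.064 for PSMD6 and 0.068 for RPS27L).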

How the data were processed

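Total RNA with an integrity number above the limit of the study was poly-A selected, and libraries made with a kit that does not mark strand were sequenced as single-end reads. The authors aligned the reads to GRCh37 (hg19 in the submitters' processing notes) with STAR, assembled transcripts with cufflinks and computed FPKM per gene and library with cuffnorm. The FPKM values were used as deposited, and the read counts behind the differential expression of the study were not analysed here.

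Values were taken as log2(FPKM + 1), which understates changes of low genes, for the 15175 genes whose mean reached 1 FPKM, and fitted with limma 3.58.1 in R 4.3.3 (lmFit, contrasts.fit and eBayes with trend) over the 4 groups, with 4 residual degrees of freedom and Benjamini-Hochberg adjustment. The fit was tested on simulated data with planted changes of 1 or 2 log2 units in RD-ES. These were larger than any eKD2 change of the 10 genes, so that test does not cover changes of their size. Figures and tables were made with Python 3.11.15. Intervals are 95% intervals of the fit. The 10 genes and the lists were chosen with earlier results of these data known. Besides these genes and LOXHD1, the text names every gene of a lipid list with an adjusted p under 0.05 in an eKD2 comparison and, where fewer than 2 passed, the 2 with the smallest p in each line, the paralogs by level, and the 5 genes that correlated best with SCD. A gene that this rule names is not reported here. Alternatives were a pseudocount of 0.1, no filter, median scaling, quantile normalization, a replicate block, no variance trend, each line alone, no genes with a longest transcript under 200 bases, rows of a symbol summed, and each library left out. Gene spans are those of a GENCODE annotation on GRCh37, which matched 98.0% of the 60332 genes and is a later version than that of the study. The methods call the 2 libraries of a group biological duplicates. The p-values set a difference against the spread between such libraries, pooled over the 4 groups and moderated over genes. The eKD2 cells carried 1 guide RNA, so the p-values do not cover differences between guide RNAs. Epithelial markers were also summed (0.606 to 4.58 FPKM).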

Additional observations from a re-analysis of the deposited data

Results flagged for a closer look

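The change in eKD2 differed between the lines past the adjusted threshold for CYP51A1 (log2 difference of SK-N-MC minus RD-ES -1.0965, limma adjusted p = 0.038). Of all genes, 0.244% passed for that difference. CYP51A1 was at 0.16 in RD-ES against -0.93 in SK-N-MC. The CYP51A1 difference did not pass with the replicate block (limma adjusted p = 0.22), without the trend (0.066) or without short genes (0.0502). With 1 library left out it ran from -1.18 to -1.01, and the call was lost in most of these fits.

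For other genes among the 10 and the lipid lists each eKD2 library lay on opposite sides of its controls in the 2 lines, and the limma test of the difference did not pass the adjusted threshold. These were ACSL3 (-0.9713, adjusted p = 0.17), MCAT (-0.5711, 0.20), HACD2 (-0.4187, 0.27), DEGS1 (0.283, 0.29), FADS3 (0.857, 0.29), PRKAG2 (-0.6154, 0.33), PRKAB1 (-0.8136, 0.32), CPT2 (-0.2928, 0.38), ELOVL4 (0.2691, 0.53) and AGPAT3 (0.1925, 0.53). ACSL3 is the 1 of them among the fatty acid synthesis and desaturation genes, and 10.2% of all genes separated in this way.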

How the results depend on the processing

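Of the log2 differences of the 10 genes in the 4 comparisons under the alternatives other than leaving out 1 library, 322 kept their direction and side of the threshold, 4 reversed, 2 lost and 2 gained a call. With 1 library left out, 292 kept both, 21 reversed, 4 lost and 3 gained a call. With 2 libraries a group, a lone library in a group was assumed to vary like the others, and the unknown depth limits what low genes such as ELOVL6 can show. The causes of the changes below were not tested, beyond the fewer genes or samples that an alternative itself leaves.

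Genes past the adjusted threshold numbered 52 in RD-ES, 49 in SK-N-MC and 37 for the difference between lines. Without the filter there were 79, 118 and 66, with each line alone 1 and 13, and without short genes 32 in SK-N-MC and 17 for the difference. With 1 library left out they ranged from 27 to 71, from 12 to 76 and from 54 to 81. The 1 of the 10 genes called in SK-N-MC became 0 with each line alone (SCD adjusted p = 0.16), and 0 to 1 with 1 library left out. The median of the 10 genes moved from -0.095 to -0.167 in RD-ES with median scaling, and with 1 library left out the range was -0.157 to -0.095 for RD-ES and -0.51 to -0.28 for SK-N-MC.

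Same-numbered libraries did not deviate together (across genes, r = 0.056 for RD-ES and 0.027 for SK-N-MC), so the replicate block is an arbitrary pairing. With the replicate block 11 genes passed in RD-ES, 5 in SK-N-MC and 7 for the difference, and 0 of the 10 (SCD adjusted p = 0.11). The block was set within each line, where it is confounded with the difference between the control lines, so no blocked value of that comparison is given.

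Reversed under median scaling were ACSL3 between the control lines (-0.061) and ACLY for the difference (0.061), and under quantile normalization ACACA (0.0072) and ELOVL6 (-0.049) in SK-N-MC. With 1 library left out, the values that crossed 0 ranged in RD-ES over -0.23 to 0.56 for ACSS2 and -0.10 to 0.40 for ACACA. In SK-N-MC they ranged over -0.43 to 0.46 for ELOVL6, -0.16 to 0.099 for ACACA and -0.12 to 0.029 for ELOVL5. Between the control lines they ranged over -0.061 to 0.0031 for SCD, -0.089 to 0.26 for ACSL3 and -0.19 to 0.067 for ACACA, and for the difference of the change over -0.074 to 0.076 for ELOVL5, -0.66 to 0.13 for ACSS2, -0.43 to 0.072 for ACACA, -0.12 to 0.074 for ACLY and -0.57 to 0.32 for ELOVL6.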
